A study of Mus musculus with 2 samples.

Results

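Intergenic transcript models are reads placed between annotated genes. Here they were all models that the deposited tables class as intergenic, from long-read RNA sequencing of the heart of female B6CASTF1/J mice, F1 hybrids of a C57BL/6 and a CAST strain, at 14 days of age. There were 2122 such models of 91724 models other than spike-ins in replicate 1 and 2428 of 94012 in replicate 2. Models that overlapped on the same strand, in either library, were merged into 4070 loci. Of these, 3712 held only single-exon models and 358 held at least 1 model of 2 or more exons, called spliced loci below. The study had 1 group with 2 libraries, no treatment and no other genotype. Labels name them biological replicates, but some fields of replicate 2 name the same pool of females as replicate 1 and another field names a different animal; p-values below measure only differences between these libraries, which may be technical. Heart was the labelled tissue, and all 12 heart muscle markers examined were detected in both libraries, at 46.4 CPM or more (CPM is a feature's reads scaled to a library total of 1000000); Alb of liver had 0 and 1 reads and Myh4 of fast skeletal muscle had 0 and 0, but Acta1, the skeletal muscle actin that young heart also expresses, had 522 and 525. Of 2 lung markers, Scgb1a1 had 111 and 7 reads and Sftpc had 2 and 1, and Cd3e of T cells had 0 and 0. Whether lung RNA contributed to any locus was not tested.

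Transcription outside annotated genes takes several known forms. Long noncoding RNA genes have their own promoters, exons and poly(A) sites, and annotation catalogues differ in which of them they hold. Many active promoters, above all those rich in CpG, also start a short-lived transcript in the opposite direction, and polymerase can pass a gene's annotated end, so that longer 3′ ends appear downstream on the same strand. Single-exon long reads carry no splice junction to show their strand or to tell them from genomic DNA, whereas a spliced read does. Neither kind of read alone excludes internal priming or a neighbouring transcript. TALON, the program that named the models, sorts each read into a class: annotated (known), ISM (part of an annotated intron chain), NIC (a new combination of annotated splice sites), NNC (a new splice site), antisense to a gene, genomic (within a gene with no matching splice pattern) and intergenic. These classes are also given within genes that the program itself placed between annotated ones. Such genes had 151 genomic-class reads in replicate 1 and 129 in replicate 2. TALON can place the end of a read on an end already in its database when they are near each other. Which distance the authors allowed is unknown here.

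The promoters below show where intergenic loci met the start of another transcript. Each runs from 250 bases before to 50 bases after a RefSeq start site on GRCm38.p6, the mm10 assembly, and is printed 5′ to 3′ on the strand of the RefSeq gene. Capitals mark the bases that lie within the intergenic locus. The first set of 3 holds the loci with the most reads, found in both libraries, whose 5′ end fell in the window on the other strand, so that locus and gene point away from each other. They were at Tbc1d22a (a Rab GTPase-activating protein family member; window chr15:86214209-86214508, plus strand), Qser1 (chr2:104816647-104816946, minus strand) and Med26 (a subunit of the Mediator complex; chr8:72548261-72548560, minus strand).
Tbc1d22a: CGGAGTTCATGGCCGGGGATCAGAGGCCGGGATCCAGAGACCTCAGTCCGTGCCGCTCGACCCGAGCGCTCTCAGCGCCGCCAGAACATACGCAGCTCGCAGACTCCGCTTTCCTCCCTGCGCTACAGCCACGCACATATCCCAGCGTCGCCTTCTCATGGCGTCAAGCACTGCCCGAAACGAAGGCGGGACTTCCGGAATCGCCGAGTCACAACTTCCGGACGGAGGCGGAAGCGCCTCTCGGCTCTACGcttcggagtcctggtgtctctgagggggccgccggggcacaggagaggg
Qser1: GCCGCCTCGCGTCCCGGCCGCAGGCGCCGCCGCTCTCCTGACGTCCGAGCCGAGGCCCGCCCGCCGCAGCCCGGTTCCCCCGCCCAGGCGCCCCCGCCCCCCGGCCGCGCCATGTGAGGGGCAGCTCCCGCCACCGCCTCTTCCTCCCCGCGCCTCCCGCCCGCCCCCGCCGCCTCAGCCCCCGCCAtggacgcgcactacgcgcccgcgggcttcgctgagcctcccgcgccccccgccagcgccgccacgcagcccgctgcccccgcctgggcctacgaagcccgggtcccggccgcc
Med26: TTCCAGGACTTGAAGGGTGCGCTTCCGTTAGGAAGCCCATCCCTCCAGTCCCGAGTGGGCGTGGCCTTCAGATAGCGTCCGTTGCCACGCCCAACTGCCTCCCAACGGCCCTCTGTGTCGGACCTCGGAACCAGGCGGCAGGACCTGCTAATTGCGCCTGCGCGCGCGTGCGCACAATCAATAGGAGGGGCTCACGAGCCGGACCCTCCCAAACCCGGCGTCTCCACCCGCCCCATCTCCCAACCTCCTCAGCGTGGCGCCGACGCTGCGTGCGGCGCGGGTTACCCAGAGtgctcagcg

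The second set holds spliced loci in both libraries that start within the window on the same strand: the one beside a gene of the heart list and the 4 with the most reads. They were at Myl2 (the ventricular regulatory myosin light chain; chr5:122092939-122093238, plus strand) and at the RefSeq genes Gm52520 (chr2:85958031-85958330, plus strand), Gm46838 (chr3:105825804-105826103, minus strand), Gm36148 (chr1:64516551-64516850, plus strand) and Gm38882 (chr6:117879383-117879682, plus strand), all 4 absent by symbol from GENCODE M21, the annotation the libraries were quantified on. The window at Myl2 is at a RefSeq start upstream of the GENCODE gene and not at the GENCODE start. The locus there, IG2951, runs from 122093005 to 122099632 and ends 1319 bases before the GENCODE gene.
Myl2: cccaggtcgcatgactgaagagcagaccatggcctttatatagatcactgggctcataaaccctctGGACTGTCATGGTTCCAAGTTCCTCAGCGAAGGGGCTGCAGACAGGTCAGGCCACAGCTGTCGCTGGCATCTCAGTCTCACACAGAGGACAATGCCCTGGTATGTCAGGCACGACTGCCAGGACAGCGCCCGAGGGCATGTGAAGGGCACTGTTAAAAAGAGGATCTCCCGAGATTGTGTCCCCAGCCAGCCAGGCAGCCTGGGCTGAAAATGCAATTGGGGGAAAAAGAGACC
Gm52520: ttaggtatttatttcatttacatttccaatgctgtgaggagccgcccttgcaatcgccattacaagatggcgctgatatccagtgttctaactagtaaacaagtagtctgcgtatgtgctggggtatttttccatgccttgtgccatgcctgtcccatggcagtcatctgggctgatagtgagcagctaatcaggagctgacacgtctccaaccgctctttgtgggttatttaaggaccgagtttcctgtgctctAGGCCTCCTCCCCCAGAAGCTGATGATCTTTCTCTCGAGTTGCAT
Gm46838: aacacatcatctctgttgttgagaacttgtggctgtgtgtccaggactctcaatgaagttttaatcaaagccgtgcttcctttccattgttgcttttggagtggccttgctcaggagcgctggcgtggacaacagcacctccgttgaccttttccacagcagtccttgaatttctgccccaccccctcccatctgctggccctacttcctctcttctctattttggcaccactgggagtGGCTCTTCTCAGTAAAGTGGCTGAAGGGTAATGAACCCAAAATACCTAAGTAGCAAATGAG
Gm36148: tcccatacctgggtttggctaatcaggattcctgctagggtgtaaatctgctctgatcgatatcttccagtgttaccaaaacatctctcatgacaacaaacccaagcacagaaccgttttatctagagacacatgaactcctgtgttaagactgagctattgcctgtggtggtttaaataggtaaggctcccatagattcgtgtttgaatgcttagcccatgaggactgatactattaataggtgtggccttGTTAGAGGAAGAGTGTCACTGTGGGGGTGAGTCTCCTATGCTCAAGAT
Gm38882: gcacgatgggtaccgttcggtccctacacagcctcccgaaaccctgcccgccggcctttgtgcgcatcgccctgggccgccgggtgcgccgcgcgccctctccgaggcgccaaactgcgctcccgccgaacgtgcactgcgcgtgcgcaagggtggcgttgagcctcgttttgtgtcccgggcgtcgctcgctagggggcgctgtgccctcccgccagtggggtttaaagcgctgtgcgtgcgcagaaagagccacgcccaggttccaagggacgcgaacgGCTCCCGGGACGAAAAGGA

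In the first set the capitals run from the upstream edge of the window up to, or close to, the gene's start: the locus at Tbc1d22a began at the base of the gene's own start site, 251 of the window's 300 bases were covered, and 17 reads in replicate 1 and 25 in replicate 2 ran away from the gene. At Qser1, with 8 and 11 reads, the locus began 64 bases upstream of the start site; a RefSeq gene, 2310047K21Rik, lies there on the strand of the locus. At Med26, with 4 and 5 reads, the locus began 40 bases inside the RefSeq gene, at the start that GENCODE gives. These windows held 33, 49 and 31 CpG dinucleotides. In the second set only the bases near the start are in capitals, except at Myl2, and the windows held 7, 8, 4, 3 and 40 CpG dinucleotides, so that Gm38882 was in the range of the first set. Over all loci, 133 had their 5′ end in a RefSeq promoter window on the other strand, and 54 of these lay at the exact base of the gene's start. In a window on the same strand 53 had their 5′ end, 39 of them spliced, and 16 lay within 10 bases of the start. The counts share 14 loci that lay in windows of both kinds, the one at Qser1 among them.

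Windows of the 2 kinds differed in their letters. The median number of CpG was 26 in the 142 windows with a locus on the other strand, 7 in the 57 windows with a locus on the same strand, 7 in all 32851 windows and 20 in the 11619 windows of protein-coding genes with reads in both libraries. GGGCGG, the core of the GC box, searched on both strands, was in 73.9% of the windows with a locus on the other strand, in 62.8% of those of detected protein-coding genes, in 31.6% of those with a locus on the same strand and in 35.7% of all. TATAAA was in 4.23%, 7.16%, 12.3% and 13.6% in the same order, and CCAAT in 39.4%, 37.6%, 29.8% and 37.4%. A match describes the letters and is not a bound site. No test was run on these shares.

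Intergenic reads were a small part of the libraries. Replicate 1 had 3621 such reads, 0.409% of its 884718 reads other than spike-ins (exact Clopper-Pearson 95% interval 0.396 to 0.423), and replicate 2 had 4017, 0.419% of 959334 (0.406 to 0.432). The mean was 0.414% ± 0.00668 (SD, n = 2), and the intervals of the libraries overlap. Intervals here cover counting error only. A single read stood for 1.17 CPM in replicate 1 and 1.08 in replicate 2, on totals of 858071 and 926560 reads other than spike-ins and genomic-class reads, and with no read seen up to 3 reads may be missed, which is 3.50 and 3.24 CPM. Most models rested on the least evidence possible: 84.6% in replicate 1 and 85.9% in replicate 2 had 1 read, and 22 and 28 models had at least 10. At the other extreme, the 10 models with the most reads held 19.1% of the intergenic reads in replicate 1 and 17.9% in replicate 2.

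Splicing set a minority apart. Models of 2 or more exons were 183 of 2122 in replicate 1 and 236 of 2428 in replicate 2, and they took 499 of 3621 reads (13.8%, exact interval 12.7 to 14.9) and 561 of 4017 (14.0%, 12.9 to 15.1). The shares did not differ beyond counting error (2-sided Fisher's exact test on reads, p = 0.817, odds ratio 0.985), although reads of 1 library are not independent samples. A single locus, IG0497, held 262 of the 499 reads and 244 of the 561, and the shares without it were not tested. With 2 exons there were 112 and 146 models, with 3 exons 38 and 54, and with 4 exons 22 and 23; the highest number was 8, in 2 models and 1. Median length was 1365 bases in replicate 1 and 1399.5 in replicate 2 for spliced models. For single-exon models it was 602 and 573 bases, against 2339 and 2302 for annotated models and 1820 and 1704 for single-exon antisense models. Under 200 bases, the conventional lower length of a long noncoding RNA, lay 28.0% and 27.1% of the single-exon models.

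Few loci recurred. Of the 4070, 462 (11.4%) had intergenic reads in both libraries, and these held 3552 of 7638 reads (46.5%). The large remainder came from single reads, which cannot recur by definition: 3362 loci had 1 read in all. Recurrence climbed with reads, from 185 of 355 loci with 2 reads (52.1%) to 132 of 184 with 3 or 4 (71.7%), 92 of 111 with 5 to 9 (82.9%) and 53 of 58 with 10 or more (91.4%). Spliced loci were found in both libraries more often at each of these levels, as with 2 reads in all, where 48 of 60 spliced loci (80.0%) and 137 of 295 single-exon loci (46.4%) recurred. A locus counts as spliced from either library, so a locus with models in both had more chances to be counted as spliced. How far this raised the shares of spliced loci was not tested. Of all spliced loci 93 (26.0%) recurred, 61 of them with spliced reads in each library, and of all single-exon loci 369 (9.94%).

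**Figure D1:**
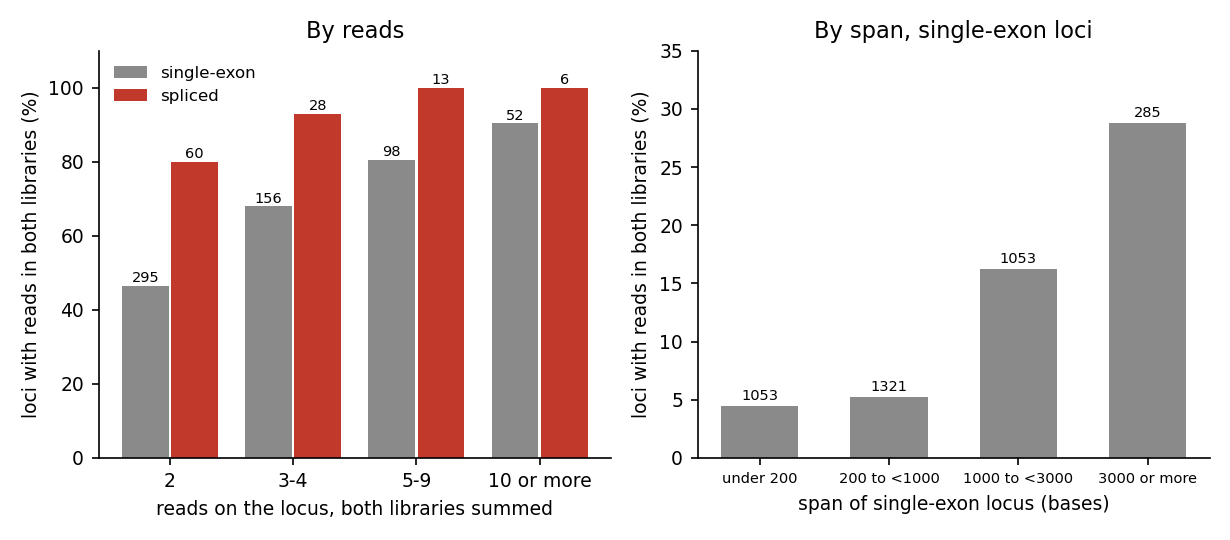
Percentage of intergenic loci with reads in both libraries (y axis). Left, by the reads on the locus summed over the libraries, for single-exon (grey) and spliced (red) loci; right, single-exon loci by span in bases; numbers above bars are loci. Spliced loci stand above single-exon loci at every number of reads, and single-exon loci of 3000 bases or more reach 28.8% against 4.46% for those under 200 bases.

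Span went with recurrence among single-exon loci. Under 200 bases, 47 of 1053 loci were in both libraries (4.46%), and from 200 to 999 bases 69 of 1321 (5.22%). Between 1000 and 2999 bases the number was 171 of 1053 (16.2%), and from 3000 bases on 82 of 285 (28.8%). A merged locus takes the span of all its models, so loci with more models are also longer, and the part of this in the trend was not tested. The shortest loci lay farthest from genes, at a median of 11695 bases against 2718.5 for those of 1000 to 2999, and 1.99% of them touched a gene against 16.8%.

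Where a locus recurred, its 3′ end was placed more alike than its 5′ end. For 448 loci with exactly 1 model in each library, the 3′ ends differed by a median of 0 bases and the 5′ ends by a median of 58. Within 20 bases of each other lay 81.7% of the 3′ ends and 46.2% of the 5′ ends. The 3′ end was the closer of the pair at 273 loci and the 5′ end at 114, and 61 were tied. Leaving out the loci that touched a gene gave 359 loci with 81.9% and 40.1%. Among the 90 spliced loci the shares were 66.7% and 43.3%, and among the 358 single-exon loci 85.5% and 46.9%. Several reads that TALON had already joined into 1 model share that model's ends, so these are distances between models, not between reads.

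**Figure D2:**
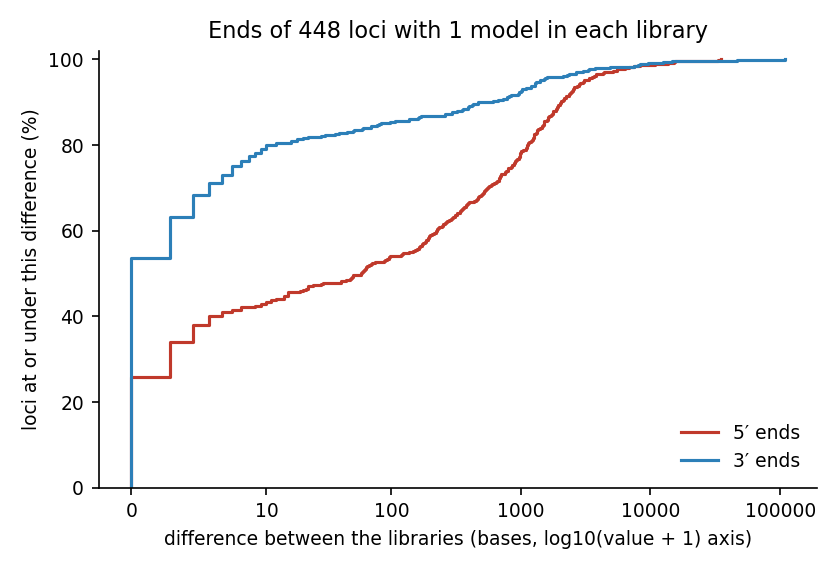
Cumulative percentage of the 448 loci with 1 model in each library (y axis) whose 5′ ends (red) or 3′ ends (blue) differ between the libraries by at most the number of bases on the x axis, which is log10(value + 1). The 3′ curve lies above the 5′ curve through most of the range, at 81.7% against 46.2% at a difference of 20 bases.

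Loci often began or ended at the exact edge of an annotated gene. The class holds models placed between genes, so a gene's end cannot lie inside a locus. No locus accordingly shared more than 1 base with a GENCODE gene on either strand, and 480 (11.8%) shared exactly 1. Offsets between locus ends and gene ends were counted within 20 bases, and those that reach into a locus are empty by definition. Of the 8140 ends of loci, 494 fell on the end base of a gene, against 0 or 1 at every other offset. Past these came a gap: 0 loci lay 1 to 200 bases from their nearest gene, 1 lay 201 to 300 bases away, 17 lay 301 to 400, 36 lay 401 to 500 and 286 lay 501 to 1000. So a distance of 0 here includes any read that the program may have moved to an annotated edge, and how many were moved was not tested.

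Among these contacts, divergent pairs were the most frequent. At 214 loci the 5′ end lay at the 5′ end of a gene on the other strand, with 219 reads in replicate 1 and 277 in replicate 2; 43 were in both libraries and 42 were spliced. In 163 the 5′ end lay at the 3′ end of a gene on the same strand, with 324 and 370 reads; 26 were in both libraries and 5 were spliced. The 3′ end lay at the 3′ end of a gene on the other strand in 72 loci and at the 5′ end of a gene on the same strand in 45.

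**Figure D3:**
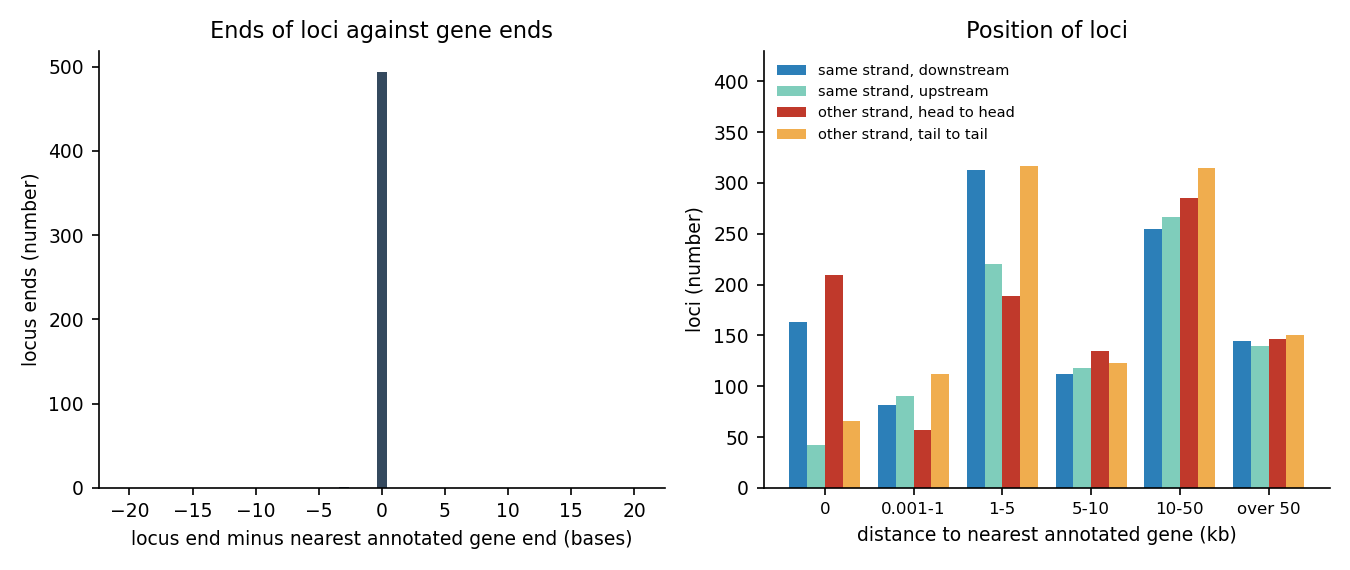
Left, number of locus ends (y axis) by their offset in bases from the nearest end of an annotated gene, over 20 bases each way; right, number of loci (y axis) by distance to the nearest annotated gene and by strand and side. At offset 0 there are 494 ends against 0 or 1 elsewhere, and head-to-head loci lead at distance 0 with 209.

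Over all distances the 4 arrangements were alike in number. Of 4048 loci on sequences with an annotated gene, 1068 (26.4%) lay downstream of their nearest gene on its strand, 876 (21.6%) upstream on its strand, 1021 (25.2%) head to head with a gene on the other strand and 1083 (26.8%) tail to tail with one. The side of the nearest gene differed with distance: at 0 bases 209 loci were head to head and 163 downstream, at 1001 to 5000 bases 189 and 313, and over 50000 bases 146 and 144. Spliced loci were head to head in 33.5% of cases and single-exon loci in 24.4%. The median distance was 6222 bases over all loci, 2187.5 for loci in both libraries and 7262.5 for loci in 1 library. Within 5000 bases of a gene lay 68.3% of the loci in both libraries and 43.1% of those in 1, and beyond 50000 bases 4.59% and 15.6%.

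The genes beside the loci were mostly ones read in this tissue when they were near, and mostly not when they were far. Reads in both libraries were found for 22.2% of all annotated genes, for 72.9% of the genes that a locus touched, for 58.3% of nearest genes within 5000 bases and for 9.52% of nearest genes over 50000 bases away. Because protein-coding genes are read more often, they were also taken alone: 52.3% of all of them were detected in both libraries, 77.0% of the 352 with a locus within 5000 bases downstream and 91.4% of the 222 with a locus head to head within 1000 bases. Many loci nevertheless had a nearest gene without reads: of 458 recurrent loci with a gene on their sequence, this was so in both libraries for 172, where the gene on the other side may still be read. At 198 the locus had more reads than its nearest gene in each library. These include the 172 by definition, because a recurrent locus has reads in each library and the gene there has none.

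A second catalogue placed some loci in genes. RefSeq genes on the same strand overlapped 467 of 4048 loci (11.5%), and 3077 (76.0%) overlapped no RefSeq gene on either strand. For spliced loci the share on the same strand was 34.4% (122 of 355), 105 of them with lncRNA genes, and in 106 the overlapping symbol was absent from GENCODE M21. For single-exon loci it was 9.34%. Loci in both libraries overlapped a RefSeq gene on their strand in 20.7% of cases and loci in 1 library in 10.4%. In 152 loci downstream of a gene and 47 upstream of one, the RefSeq span of that very gene reached into the locus, with 36 and 12 of these loci in both libraries. A microRNA hairpin met 1 locus on its strand, by the single base where the locus began at Mir130a. GENCODE and RefSeq symbols were matched as written, and 76.0% of RefSeq symbols were also in GENCODE M21.

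The locus with the most reads was spliced and far from any gene. IG0497, at chr11:31545795-31549650 on the plus strand, had 262 reads in replicate 1 and 244 in replicate 2, or 305 and 263 CPM. Its model had 2 exons and 1857 bases, and its intron, from 31546002 to 31548000, was 1999 bases long in both libraries. The levels of the libraries lie within counting error of each other, at a log2 ratio of replicate 2 to replicate 1 of -0.21 (exact 95% interval -0.47 to 0.04; exact binomial test, adjusted p = 0.648). At a mean of 284 CPM ± 29.7 (SD, n = 2) it exceeded 96.5% of the 15048 annotated genes with any read, and 522 genes were higher. Its neighbours are Bod1, a protein of chromosome attachment in mitosis, 115531 bases away with 160 and 145 reads, and Stc2, a secreted glycoprotein, 175721 bases away with 9 and 5 reads. No RefSeq gene overlapped it on either strand. This single model held 262 of the 499 reads on spliced models in replicate 1 and 244 of the 561 in replicate 2.

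Other spliced loci had few reads, and most of their intron chains were seen in 1 library. Of 388 distinct intron chains, 31 occurred in both libraries base for base, the chain of IG0497 included, and the other 30 held 58 reads in replicate 1 and 62 in replicate 2. The shared chains numbered 33 when splice sites could differ by up to 10 bases; 326 chains had 1 read in all. The chains held 629 distinct introns of 37 to 107547 bases, with a median of 2075; 60 introns were in both libraries, and 33 were of 30 to 99 bases. After IG0497, the shared chains with the most reads were a 2-exon model on chromosome Y (IG4065, 7 and 8 reads), the one at Med26 with a 600-base intron (IG3541, 4 and 5 reads), the 3-exon model of IG2935 with 3 and 5 reads, and the 3-exon model of IG2426 with 3 and 4 reads. IG2935 overlapped the RefSeq lncRNA gene Gm36149, 33903 bases downstream of Mn1, and IG2426 is the locus at Gm46838 printed above. The shared chains with the most exons were of 4 exons, IG2065 with 2 and 1 intergenic reads and IG1528 with 1 and 1.

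Among the spliced loci with the most reads, some differed in exons between the libraries. Prkce, protein kinase C epsilon, had a locus on the other strand that met its 5′ end (IG1680; Prkce 11 and 11 reads), where replicate 1 had 6 reads on a single-exon model and replicate 2 had 4 on a model of 2 exons. Near Vars, the valyl-tRNA synthetase (33 and 50 reads), a locus that began 633 bases away overlapped the RefSeq lncRNA gene D17H6S56E-5. This locus, IG1577, had 9 reads on a 2-exon model in replicate 1 and 1 read on a 4-exon model in replicate 2, and 11 and 10 reads of any class. Beside Pitpnc1, a phosphatidylinositol transfer protein, a locus of 3 exons in each library lay tail to tail 2054 bases away on the RefSeq gene Gm39425 (IG0680, 5 and 7 reads). IG2092, on Gm52520 above, had 2 reads on a 2-exon model in replicate 1 and 6 on single-exon models in replicate 2, and lay among olfactory receptor genes, its neighbours Olfr1028 and Olfr1029 both at 0 reads. IG0629 had 4 reads on a 2-exon model in replicate 1 and 4 on single-exon models in replicate 2, and the genes on either side were at 0 reads. The longest span in both libraries was 219829 bases at IG0745, a locus of up to 6 exons with 1 read in each library.

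Among single-exon loci the leaders were longer transcripts beside genes, transcripts beside processed pseudogenes, and a few of under 200 bases. IG3255 lay on the other strand at the 3′ end of Dyrk1b, a protein kinase (chr7:28187294-28188670, minus strand), with 98 and 99 reads against 22 and 23 for Dyrk1b, a log2 ratio between the libraries of -0.10. It lay within the RefSeq span of Dyrk1b, on the other strand. IG0657 lay downstream of Klhl10, a Kelch protein of spermatids, on its strand and inside its RefSeq span. Replicate 1 had 28 reads on a model of 4649 bases that began at the GENCODE end of Klhl10, replicate 2 had 40 on a model of 1601 bases with the same 3′ end, and Klhl10 itself had 1 and 0. IG1889, with a model of 1220 bases in replicate 1 and 2826 in replicate 2, had 30 and 35 reads on the strand opposite to the RefSeq gene Lcor. IG2697, 6253 bases downstream of Gm26615, had 38 and 17. The short loci were IG1391 on chromosome 15, 178 bases with 28 and 53 reads, and IG3242, 170 bases and 3312 bases from Igsf23, with 32 and 29. None of these 6 passed the test between the libraries described below.

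Several of the largest loci began at the 3′ end of a processed pseudogene, a retrotransposed copy of a spliced transcript. Counting pseudogenes of every type, 46 loci began at the 3′ end of one on its strand, with 177 reads in replicate 1 and 233 in replicate 2. All 163 loci that began at a gene's 3′ end on its strand had 324 and 370. Beside Gm6969 the locus had 93 and 68 reads and the pseudogene 61 and 109. At Pgk1-rs7, a copy of the phosphoglycerate kinase gene, the locus had 39 and 81 and the pseudogene 76 and 55, and next to Gm5537 they had 0 and 18 and 53 and 30. In each of the 3 the library that was lower for the locus was the higher for the pseudogene, and the sums were closer: 154 and 177, 115 and 136, and 53 and 48. Reads of near-identical copies can be split by the alignment, so levels at these loci are uncertain.

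**Figure D4:**
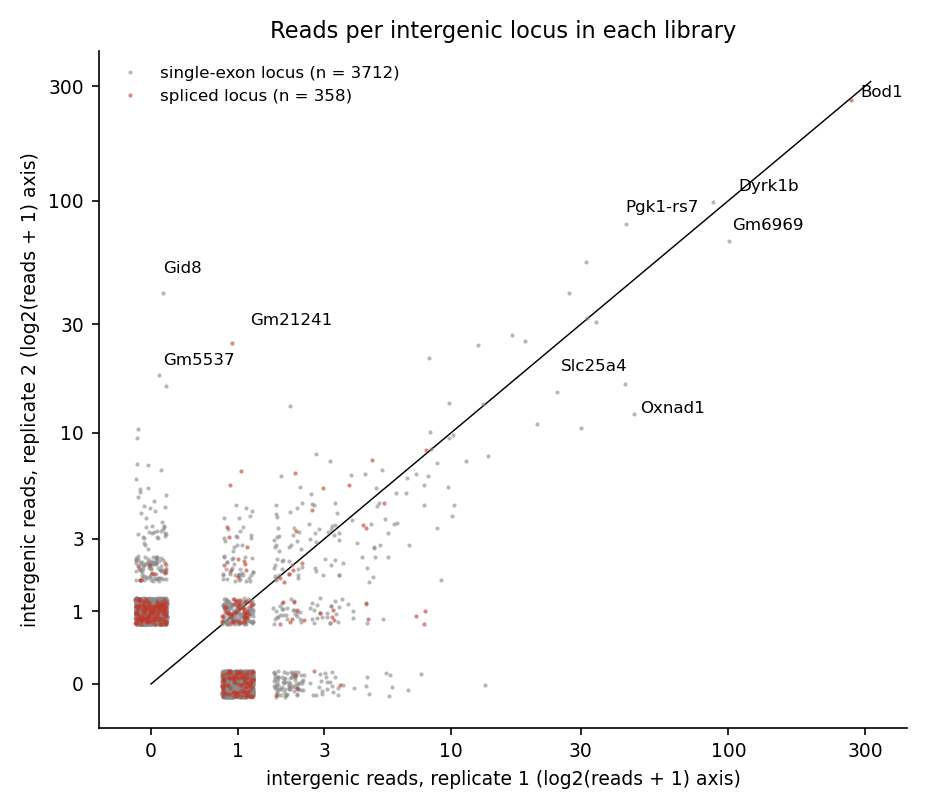
Intergenic reads per locus in replicate 1 (x axis) and replicate 2 (y axis), each on a log2(reads + 1) axis with small random shifts so that points do not hide each other; grey, 3712 single-exon loci, red, 358 spliced loci; the line marks equal reads and names give the nearest gene. Loci named Gid8 and Gm5537 have 0 reads in replicate 1 and 45 and 18 in replicate 2, while Bod1, with 262 and 244, is close to the line.

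The test between the libraries could be made for few loci. At least 10 reads in all were required, which 58 of the 4070 loci had, and a 2-sided exact binomial test compared these libraries given their totals, with Benjamini-Hochberg adjustment over 10352 annotated genes, antisense loci and intergenic loci. Of all of these 199 were called (1.92%), and of the 58 intergenic loci 7 (12.1%), 5 higher and 2 lower in replicate 2; 16 (27.6%) had an unadjusted p under the same threshold of 0.05, against 9.61% of all features. By kind, 1.78% of annotated genes and 2.79% of antisense loci were called. The 53 tested loci with reads in both libraries had a median absolute log2 ratio of 0.56. Since the libraries are 1 group, a call says only that they differ by more than counting error.

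Most of the calls went with a change of class. Next to Gid8, a subunit of the CTLH ubiquitin ligase, the locus tail to tail with the gene had 0 intergenic reads in replicate 1 and 45 in replicate 2, at least 13.9-fold higher against the floor of 3 reads (exact binomial test, adjusted p = 9.18e-11). Replicate 1, however, had 44 reads in the antisense class on a model that overlapped it. With reads of every class that shared more than 1 base with the locus on its strand, an alternative chosen after the data had been seen, the values were 44 and 45, a log2 ratio of -0.08. The locus 1708 bases downstream of Vash1, a tubulin carboxypeptidase, had 0 and 15 intergenic reads and 6 and 15 of any class. At IG1730, 1636 bases from AC161438.1, the values were 12 and 0, and 12 and 10 of any class. On chromosome Y, IG4067 had 1 and 27, and 67 and 37 of any class, since 66 reads of replicate 1 were classed as genomic.

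Counts over all classes called 9 of 107 loci and kept 3 of these calls. The share called over all features is not given for this counting, in which a read can also count for an annotated gene or antisense locus. The 1.92% above is from the test on intergenic reads, so 9 of 107 is not set against it. Oxnad1, an oxidoreductase, had a locus 12434 bases downstream with 44 and 11 reads, 45 and 11 over all classes, a log2 ratio of -2.11 (exact 95% interval -3.21 to -1.13; exact binomial test, adjusted p = 0.000344); the gene itself had 20 and 25 reads. The loci at Pgk1-rs7 (log2 ratio 0.94, exact interval 0.38 to 1.53; exact binomial test, adjusted p = 0.0373) and Gm5537 kept theirs too, both beside a pseudogene that was lower where the locus was higher. When the 1 base shared with the pseudogene was also counted, the values became 115 and 136 at Pgk1-rs7 and 53 and 48 at Gm5537, and neither was called.

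Counting every class brought out loci in which intergenic reads were not the majority over both libraries together. At 26 loci with at least 20 reads of any class, intergenic reads were not more than 50% of them. Srl, sarcalumenin, a calcium-binding protein of the sarcoplasmic reticulum, was the extreme: downstream of it, at chr16:4476265-4478867 on its strand, IG1397 had 0 and 5 intergenic reads but 1415 and 1346 of any class, of which 1263 and 1341 were NIC. This region begins 1349 bases past the GENCODE end of Srl and lies in the RefSeq span of the gene. Myl2 had a 4-exon locus upstream on its strand, its start printed above, with 1 and 1 intergenic reads and 46 and 53 of any class. Models assigned to Myl2 itself had 41 and 52 of these, and by class the reads were ISM at 19 and 23, NIC at 15 and 18 and NNC at 9 and 11.

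Elsewhere the totals differed between the libraries even when all classes were summed. Beside Atp2a2, the sarcoplasmic calcium pump, a locus 2426 bases downstream had 56 reads in replicate 1, all genomic, and 3 in replicate 2, all intergenic. A locus tail to tail with Actb had 74 antisense reads in replicate 1 and 1 intergenic read in replicate 2. Mylk3, the cardiac myosin light chain kinase, had 50 and 3 reads at a locus 848 bases downstream, 30 NIC and 20 NNC in replicate 1. Touching the 3′ end of Rilpl1, IG2961 had 4 and 119, the 119 all NIC. These 4 were called over all classes by the exact binomial test, with adjusted p of 5.08e-12, 1.2e-19, 2.25e-10 and 1.25e-25 in that order. The locus at Srl was called too by the exact binomial test (log2 ratio -0.18, adjusted p = 0.0485). At Atp2a2 and Mylk3, models assigned to the gene itself held all 56 and all 50 reads of replicate 1. At Rilpl1 they held all 119 of replicate 2, at Srl 1415 and 1341, and at Actb 0 and 0. Such loci take in all reads of any longer model that crosses them, so the sums and calls describe the region and not 1 transcript. The cause of the differences was not tested.

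**Figure D5:**
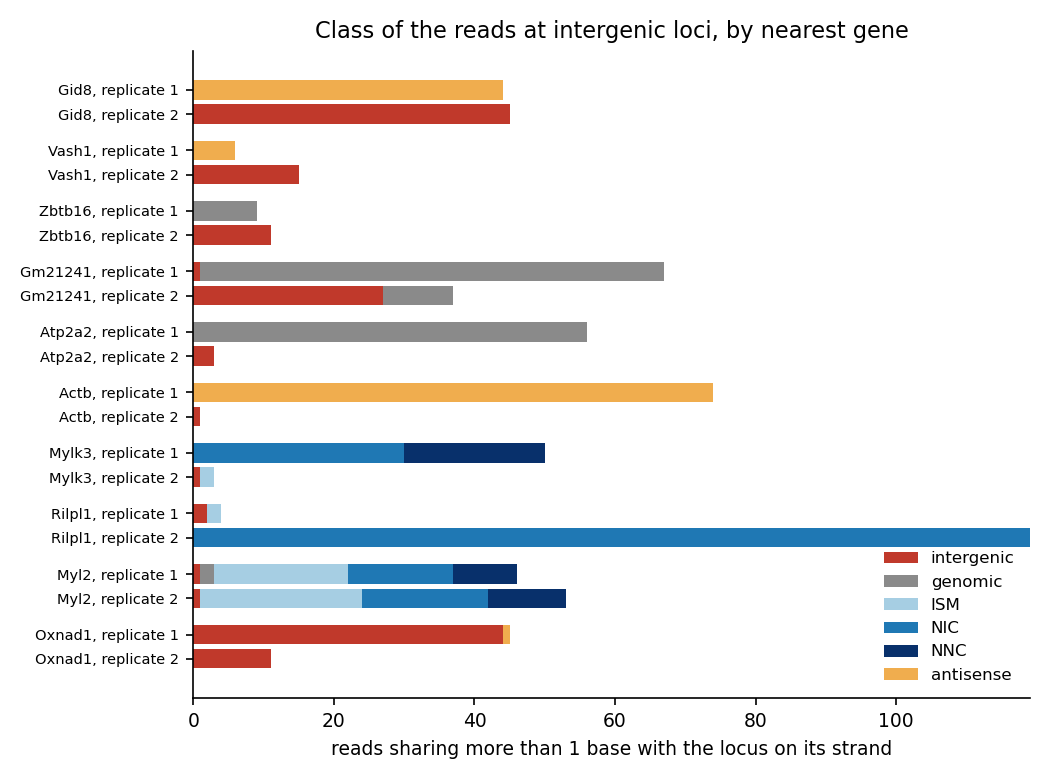
All reads of models with an exon that shares more than 1 base with the locus on its strand (x axis). Colours give the TALON class of the model, for 10 loci named by their nearest gene, with a bar for each replicate. At Gid8 the bars are of like length, 44 and 45, but antisense in replicate 1 and intergenic in replicate 2, whereas at Atp2a2 and Actb both the class and the length differ.

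Of loci seen in 1 library only, 150 of 3608 had reads of another class in the other library. Above 10 reads there were 5 such loci with intergenic reads in a single library, and 4 had reads of another class in the other, the exception being the one at Gm5537. At Zbtb16, a zinc finger transcription factor, replicate 2 had 11 intergenic reads 1199 bases downstream of the gene. Replicate 1 had 9 genomic reads on a model that overlapped that locus. Vps26c, a retriever complex subunit, had 9 intergenic reads in replicate 2 at its 5′ end on the other strand and 8 antisense reads in replicate 1. Both models there began at the same base, and the antisense one ended further on.

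Genes with a role in heart muscle were often the nearest gene of a locus, at any distance. On a list of 59 such genes, taken whether or not they had reads, this held for 20 (33.9%). Among all genes with reads in both libraries it held for 11.1%. The list was chosen with earlier results of these data known, levels and spacing of genes were not matched, and no test was run. Distances reached 179177 bases at Gata6 and 150568 at Mef2c. Their 35 loci held 70 and 59 reads, and 11 were in both libraries. Slc25a4, the mitochondrial ADP/ATP carrier of heart and muscle, had the locus with the most reads: IG3499, tail to tail at 2804 bases, with 23 and 17 reads beside a gene of 17310 and 15544. Actn2, the α-actinin of the Z-disc, had 8 and 8 reads at IG0913, 2276 bases downstream, and the gene 3133 and 3124. Their log2 ratios between the libraries were -0.55 (exact interval -1.54 to 0.42) and -0.11, and neither was called (exact binomial test, adjusted p = 0.834 and 1).

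Loci beside other heart genes had 9 intergenic reads or fewer in all. Rbm20, the splicing factor of titin, had a locus on the other strand from its 5′ end (IG1916; Rbm20 91 and 122 reads), with 8 reads on a single-exon model in replicate 1, 1 read on a 2-exon model in replicate 2, and 10 and 7 reads of any class. Myh7, the slow myosin heavy chain, had one on the other strand 1345 bases away (IG1125, 1 read of 2 exons and 6 of a single exon; Myh7 5 and 14) that overlapped the RefSeq gene Gm31251. Around Nkx2-5, the homeobox factor of the early heart, lay 7 loci, all on its strand, with 11 and 7 reads; 3 were in both libraries, more than for any other gene. Of these, IG1553 lay 7474 bases downstream with 4 and 1 reads and IG1558 lay 3751 bases upstream with 3 and 2. Myocd, the coactivator of serum response factor, had 5 and 2 reads 2295 bases downstream, within its RefSeq span, where the gene had 6 and 10. Ryr2, the calcium release channel, had 2 and 1 reads tail to tail at 7700 bases. At 1 to 8 reads these loci are at the limit of what the depth can compare.

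Chromosome Y held 11 loci although the labels give female mice. They had 17 intergenic reads in replicate 1 and 42 in replicate 2, while the annotated genes of that chromosome had 1 and 2. Over any class, the intergenic genes there had 84 and 53 reads, so the higher library changed with the class. The loci with the most reads were IG4065 (7 and 8) and IG4067 (1 and 27), both of 2 exons, at 43412 and 28616 bases from the nearest annotated gene. Whether copies of these sequences elsewhere gave the reads was not tested. Another 22 loci were on scaffolds for which the annotation has no gene.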

How the data were processed

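Long-read RNA-seq of 2 heart libraries was taken from the deposited tables, which give the count of reads per TALON model as whole numbers, and from the deposited model annotations on mm10, 1 per library; the authors quantified on GENCODE M21, per the text deposited with each library. No aligner, filter or version is given in the sources used here. Per the file headers the tables also hold other columns, such as class, exon number and length, used as deposited. Totals were 896941 and 972159 reads, all classes and spike-ins included. Intergenic models, spike-in sequences left out, were merged by overlap on a strand (pandas 2.3.3, NumPy 2.4.6). Genes came from the GENCODE M21 and RefSeq tables. Reads per feature were tested by the exact binomial test (SciPy 1.17.1), checked on simulated data; edgeR 4.0.16 gave only the TMM-scaled totals of an alternative. With 1 library on each side, the spread between replicates cannot enter a test of one library against the other. Named loci are the 10 spliced and 10 single-exon loci with the most reads, the shared chains with the most reads (5) or exons (3), the called loci, those beside heart genes (10 at most), and the longest; loci of mixed class, those in promoter windows or at pseudogene ends, and single genes outside this rule were chosen after their values were seen. Members and lists were chosen with earlier results of these data known. The remaining locus called over all classes is not reported here. Alternatives were other merging, read minimums, totals, distances and classes.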

Additional observations from a re-analysis of the deposited data

How the results depend on the processing

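Of the alternatives tried, 47 kept the direction and the side of the threshold, or for a number of loci stayed within 1.5 times, 6 kept the direction and lost the call of a single locus, 8 moved a value and 6 turned a direction. Loci in both libraries numbered 462, against 144 with at least 2 reads in each and 39 with at least 5; counting every class gave 692, or 612 where more than 1 base had to be shared. Leaving genomic-class reads out of the denominator put the intergenic share at 0.428%, and without either replicate it was 0.409% to 0.419%. Reads on spliced models were 13.8% to 14.0% without either replicate; by locus the share was 15.0% (15.1% and 14.9%, 2-sided Fisher's exact test, p = 0.797), so the higher library changed. Called loci were 7, 6 with no read minimum, 4 with at least 20 reads and 11 over every class, of which 1 was among the 7; where more than 1 base was shared there were 9, of which 3 were among the 7. Over every class the log2 ratios turned to -0.078 beside Gid8 (also where more than 1 base was shared), -0.25 beside Gm5537 and -0.97 beside Gm21241 (also where more than 1 base was shared). Downstream loci numbered 557 within 5000 bases and 244 within 1000, and head-to-head loci 266 within 1000 and 455 within 5000. Chains in both libraries numbered 31, and 57 when counted under any class. The causes were not tested. No paired analysis was possible because there is 1 group. With 1 read for most loci, absence from a library was not detectable as a difference at this depth, and near-identical copies, reads moved to annotated ends and reads of another class limit single loci.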
